A study of Mus musculus with 15 samples.

Results

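The dual-specificity phosphatases Dusp1, Dusp2, Dusp4, Dusp5, Dusp6, Dusp10 and Dusp14 and the Sprouty family genes Spry1, Spry2 and Spred1 were followed across every library. These 10 genes were chosen by name as feedback genes of the MAP kinase pathways, out of 56748 genes in the tables. The choice was made with earlier results of these data known, so their shares beside those of all genes are only a description. All 10 passed the filter on low counts, which left 15619 genes to be tested. The libraries came from mouse T helper 2 (Th2) cells, in a study of what deletion of Asb2 does to gene expression with and without restimulation of the cells. Asb2 encodes a substrate-binding subunit of a ubiquitin ligase.

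Naive CD4+ cells were taken from spleens of female mice, whose age the labels do not give. Control cells came from Asb2fl/fl mice and deleted cells (cKO) from VEC-Cre;Asb2fl/fl mice, so both genotypes carry the floxed allele. In the cKO the Cre recombinase is driven by the promoter of VE-cadherin, a gene best known from endothelium. For 3 days all cells lay on a coat of anti-CD3ε (5 µg/ml) in medium with IL-2 (10 ng/ml), IL-4 (40 ng/ml) and antibodies to CD28 (1 µg/ml) and IFNγ (10 µg/ml). They then grew without antibodies for 3 days, with both cytokines at 20 ng/ml. Stimulated cells received anti-CD3ε on plastic at 3 µg/ml and anti-CD28 in solution at 2 µg/ml over the last 24 h, and the others are called resting here. The groups held 3 resting control, 5 stimulated control, 3 resting cKO and 4 stimulated cKO libraries. The labels do not say whether the libraries are from separate animals, and p-values therefore speak only to the spread among these libraries, which may be technical.

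Binding of the T cell receptor and CD28 activates RAS and the kinases ERK, JNK and p38, which are switched on by phosphate on a threonine and a tyrosine. Dual-specificity phosphatases remove both phosphates, and many of their genes are themselves transcribed in response to the kinases, which makes them a delayed brake. Sprouty and Spred proteins act further upstream, at the membrane, where they restrain the passage of the signal from receptors through RAS to RAF.

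The libraries held between 17.1 and 24.2 M estimated counts each. Asb2 itself was at 33.5 ± 2.72 CPM (estimated counts relative to scaled library size, mean ± SD) in stimulated control and 9.49 ± 0.115 CPM in stimulated cKO libraries (log2 difference -1.82 ± 0.18, SE, adjusted p = 3.4e-04). At rest it was at 36.7 ± 12.2 CPM in control and 19.2 ± 5.62 CPM in cKO libraries, and that difference did not pass the test (-0.94 ± 0.21, adjusted p = 1). Genes of CD4+ T cells summed to 1450 to 1973 CPM and Th2 genes to 658 to 961 CPM at rest and 3024 to 4333 CPM after stimulation. Among markers of other cells, 5 B cell genes summed to 1.03 to 6.97 CPM. Of 6 macrophage genes, Lyz2 and C1qa were at 0 in every library, and Csf1r and Cd14 reached at most 0.0517 and 0.362 CPM. Adgre1 had the highest mean of the 6 at rest, 11.9 CPM in control and 11.4 CPM in cKO cells. It was at 0.911 and 1.08 CPM after stimulation. Cd68 was at 3.33 and 3.54 CPM at rest and at 3.09 and 3.18 CPM after stimulation. The 6 macrophage genes summed to 11.4 to 20.6 CPM at rest and 2.87 to 6.32 CPM after stimulation, and 4 endothelial genes, nearly all of it Pecam1, to 165 to 197 and 44.4 to 77.2 CPM. Of 5 dendritic cell genes Siglech was at 0 throughout, and their sum was 3.11 to 6.10 CPM at rest and 5.10 to 8.20 CPM after stimulation. Within that list Zbtb46 and Flt3 had higher means after stimulation, as most feedback genes did (in control cells means of 0.346 against 3.28 CPM and 0.687 against 3.33 CPM), and Itgax had a lower one (3.57 against 0.503 CPM). Erythroid genes summed to at most 0.194 CPM. Genes of CD8+ T and NK cells, chiefly Eomes, summed to 38.6 to 145 CPM at rest and to 11.2 to 43.8 CPM after stimulation. That sum was highest, at 145 CPM, in resting control replicate 3, which also had the highest Asb2 at 49.7 CPM. Within that list Eomes had means of 59.1 CPM at rest and 6.41 CPM after stimulation in control cells, and 39.1 and 5.80 CPM in cKO cells. Klrb1c was also lower after stimulation. Cd8a was at 5.79 and 7.53 CPM in control and 5.01 and 4.28 CPM in cKO cells. Cd8b1 was at 9.25 and 8.55 CPM in control and 9.18 and 7.37 CPM in cKO cells. Stimulated cKO replicate 3 stood apart by its share of mitochondrial counts, 9.43% against 4.36% to 6.24% in the other 14 libraries. Whether any of these values had a part in the results on the feedback genes was not tested. In bulk RNA, fewer cells of a type and less RNA per cell cannot be told apart.

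RefSeq promoter sequences were found for 9 of the 10 genes, Dusp4 being the exception. Shown are the promoters of 5 genes, among them Dusp1, which did not pass the test, and Spry1, with the highest fold change of the 10. They include every gene of the 9 with a motif match, and leave out Spry2, the gene that fell. Each covers 250 bases before to 50 bases after the gene's start in RefSeq, on GRCm38.p6, printed 5′ to 3′ on the gene's strand. The capitals mark matches, on either strand, to the 6 motifs described after the sequences. Dusp1 lies at chr17:26508423-26508722 on the minus strand, Dusp2 at chr2:127335909-127336208, Dusp5 at chr19:53528895-53529194, Dusp6 at chr10:99262981-99263280 and Spry1 at chr3:37639697-37639996, these last on the plus strand.
Dusp1: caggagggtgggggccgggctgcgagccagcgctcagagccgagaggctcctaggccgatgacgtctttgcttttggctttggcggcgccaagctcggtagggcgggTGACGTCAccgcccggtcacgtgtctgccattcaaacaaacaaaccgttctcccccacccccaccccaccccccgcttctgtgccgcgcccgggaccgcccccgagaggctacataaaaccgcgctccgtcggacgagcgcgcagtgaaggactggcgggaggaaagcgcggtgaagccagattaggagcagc
Dusp2: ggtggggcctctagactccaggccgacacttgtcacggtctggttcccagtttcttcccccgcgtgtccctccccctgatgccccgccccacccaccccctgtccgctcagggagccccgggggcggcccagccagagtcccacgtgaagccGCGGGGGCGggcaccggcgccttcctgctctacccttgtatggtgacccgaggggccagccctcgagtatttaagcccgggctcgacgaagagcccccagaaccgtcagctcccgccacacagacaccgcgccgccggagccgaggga
Dusp5: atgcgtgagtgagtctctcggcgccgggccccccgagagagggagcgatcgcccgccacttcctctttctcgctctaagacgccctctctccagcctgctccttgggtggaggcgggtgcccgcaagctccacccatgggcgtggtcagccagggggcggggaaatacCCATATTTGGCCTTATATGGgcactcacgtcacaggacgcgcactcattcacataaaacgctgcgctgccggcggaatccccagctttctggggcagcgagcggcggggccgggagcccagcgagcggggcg
Dusp6: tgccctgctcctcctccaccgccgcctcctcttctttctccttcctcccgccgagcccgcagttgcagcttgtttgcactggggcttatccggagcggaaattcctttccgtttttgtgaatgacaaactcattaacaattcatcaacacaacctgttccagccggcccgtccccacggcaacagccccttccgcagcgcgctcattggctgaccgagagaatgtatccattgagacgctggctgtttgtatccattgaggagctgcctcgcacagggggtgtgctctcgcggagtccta
Spry1: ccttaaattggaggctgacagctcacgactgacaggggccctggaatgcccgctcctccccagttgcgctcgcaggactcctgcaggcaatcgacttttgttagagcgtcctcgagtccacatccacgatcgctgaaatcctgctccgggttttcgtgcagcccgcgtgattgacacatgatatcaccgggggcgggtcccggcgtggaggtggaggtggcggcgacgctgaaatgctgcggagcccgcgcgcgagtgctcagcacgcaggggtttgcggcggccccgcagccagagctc

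In Dusp1 the capitals mark a full cyclic AMP response element (CRE), TGACGTCA, whose first base lies 143 bases before the start. This element was in 1 of the 9 promoters and in 1.79% of all 32851 mouse promoters of the same length. In Dusp2 they mark an EGR motif, searched as GCGNGGGCG, at 98 bases before the start, again in 1 of 9 against 5.55% of all promoters. Dusp5 had a pair of CArG boxes, the motif of serum response factor, starting 82 and 72 bases before the start; it was the 1 gene of 9 with this motif, which 1.63% of all promoters held. The AP-1 motif TGANTCA (7.81% of all promoters), the ETS motif CCGGAAG (8.86%) and the TATA motif TATAAA (13.6%) were in none of the 9 windows. Neither Dusp6 nor Spry1 held any of the 6 motifs in the window. All 9 windows were GC-rich, with 57.3% to 72.3% of bases against a median of 52.7% over all promoters. A match describes the letters of the window and shows no binding.

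Restimulation raised 6 of the 10 genes in control cells and 7 in cKO cells, and in both genotypes Spry2 was the 1 that fell. In control cells Spry1, Dusp6, Dusp2, Dusp14, Dusp4 and Spred1 rose, by 1.33- to 10.6-fold. The cKO cells had the same 6 and Dusp5 higher, by 1.499- to 8.72-fold. Dusp1 and Dusp10 did not pass the test in either genotype. At an adjusted p under 0.05 in edgeR's quasi-likelihood test, the 7 calls in control cells compare with 50.6% of all genes called (25.4% higher and 25.2% lower), and the 8 calls in cKO cells with 53.8% (26.7% higher and 27.1% lower). The median log2 fold change of the 10 genes was 0.51 in control and 0.83 in cKO cells, against 0.00 and -0.01 over all genes tested. Of the 10 genes, 4 had resting and stimulated groups that did not overlap in control cells (47.9% of all genes), and 8 in cKO cells (54.1%).

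The count in control cells depended on the resting libraries. Without resting control replicate 2 it was 4, with Dusp4 (adjusted p = 0.12), Dusp14 (0.057) and Spred1 (0.16) no longer called. Without resting control replicate 3 it was 8, with Dusp5 added, and the log2 fold change of Dusp4 went from 0.61 to 0.96. The counts without both libraries that stood apart, resting control replicate 3 and stimulated cKO replicate 3, were 8 in control and 8 in cKO cells. For 8 of the 10 genes resting control replicate 3 was the highest resting control library, so leaving it out lowers their resting mean.

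**Figure D1:**
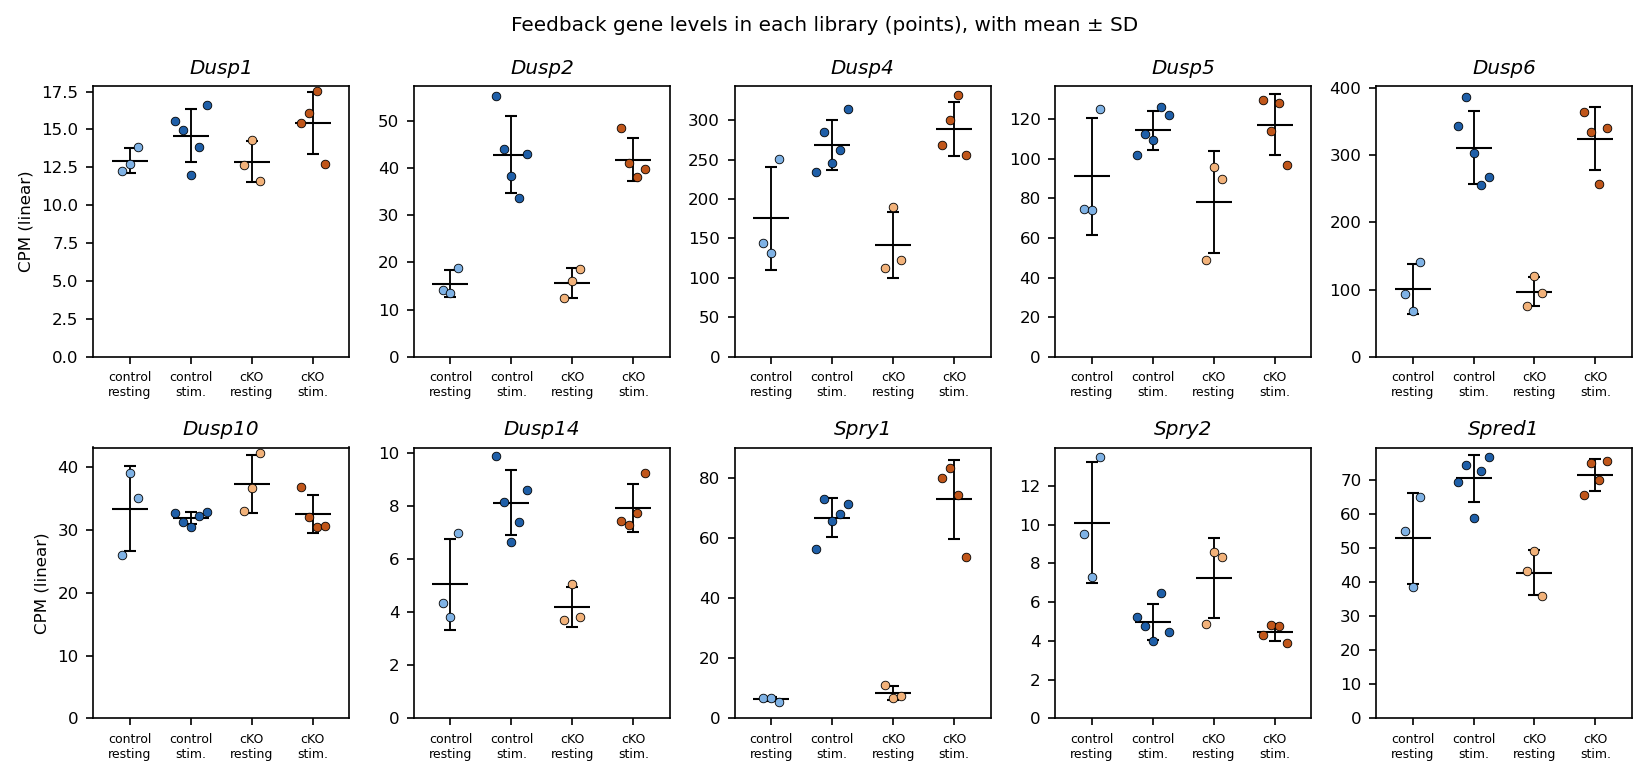
CPM of each feedback gene in each library (points, linear axis from 0) in the 4 groups, with the mean and SD of the group (bars). Within each genotype Spry1, Dusp2 and Dusp6 separate resting from stimulated libraries, and so does Spry2, which is lower after stimulation. Control and cKO overlap within each condition for all 10 genes.

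Among the phosphatases that act in the nucleus, Dusp2 (ENSMUSG00000027368) moved most. Dusp2, first described in activated lymphocytes, acts on ERK and p38. Its level was 14.1, 13.6 and 18.8 CPM in the resting control libraries and 55.3, 44.1, 38.3, 33.6 and 43.0 CPM in the stimulated ones. In cKO cells it was 12.4, 15.99 and 18.7 CPM at rest and 48.4, 41.0, 38.1 and 39.7 CPM after stimulation. Every stimulated library lay well above every resting one. The rise was 1.46 ± 0.17 on the log2 scale in control (2.76-fold, adjusted p = 1.4e-06) and 1.41 ± 0.17 in cKO cells (2.66-fold, adjusted p = 2.9e-06).

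Dusp4 (ENSMUSG00000031530), a nuclear phosphatase of ERK and JNK, had the highest TPM of the 10 genes at rest. The resting control libraries held 144, 131 and 250.9 CPM and the stimulated ones 234, 285, 245, 262 and 314 CPM. Resting control replicate 3 reached into the stimulated range, and the other two lay far below it. The rise in control cells was 0.61 ± 0.21 (1.53-fold, adjusted p = 0.023). Resting cKO libraries were at 113, 189.5 and 123 CPM and stimulated ones at 269, 301, 332 and 255 CPM. These groups did not overlap, and the rise was 1.03 ± 0.22 (2.04-fold, adjusted p = 0.0011). Dusp4 lost its call in control cells without resting replicate 1 (adjusted p = 0.11) or without stimulated replicate 5 (0.051), and also with no filter on low counts (0.065).

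Dusp5 (ENSMUSG00000034765) acts on ERK alone and holds it in the nucleus. In control cells the values were 74.3, 73.8 and 125 CPM at rest and 102, 112, 109, 126 and 122 CPM after stimulation. Resting replicate 3 lay among the highest stimulated libraries, so the groups overlapped. The difference of 0.33 ± 0.21 (95% interval -0.12 to 0.77) did not pass the test (adjusted p = 0.21). Without resting control replicate 3 it was 0.63 and passed (adjusted p = 0.017), and without replicate 1 or 2 it was 0.20. The cKO libraries gave 48.8, 95.8 and 89.7 CPM at rest and 129.7, 114, 128 and 96.7 CPM when stimulated. They met almost end to end, with the highest resting library just under the lowest stimulated one. There the rise of 0.58 ± 0.22 (1.499-fold) passed the test (adjusted p = 0.036), but without resting cKO replicate 1, the lowest library, it was 0.34 and did not (adjusted p = 0.14). Nor did it pass without stimulated cKO replicate 1 or 3 (adjusted p = 0.081 each) or in limma on log2(TPM + 0.1) (adjusted p = 0.055).

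Dusp1 (ENSMUSG00000024190), the classical immediate-early phosphatase, prefers p38 and JNK. Its resting control libraries held 12.3, 12.7 and 13.8 CPM and its stimulated ones 15.5, 14.98, 12, 13.8 and 16.6 CPM. The cKO values were 12.7, 14.3 and 11.6 CPM at rest and 15.4, 16.1, 17.6 and 12.7 CPM after stimulation. Resting and stimulated libraries were interleaved in both genotypes. The differences were 0.17 ± 0.13 in control (95% interval -0.10 to 0.44, adjusted p = 0.28) and 0.26 ± 0.13 in cKO cells (-0.02 to 0.54, adjusted p = 0.10). Without stimulated cKO replicate 4, the lowest of its group, the cKO value was 0.37 and passed (adjusted p = 0.030).

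Dusp6 (ENSMUSG00000019960), the cytoplasmic phosphatase specific to ERK, had the second highest rise. Its control libraries went from 94.1, 67.7 and 142 CPM at rest to 344, 387, 303, 256 and 267 CPM when stimulated. In the cKO they went from 75.8, 119.9 and 95.4 CPM to 365, 335, 257 and 341 CPM. No resting library of either genotype came near a stimulated one. The rise was 1.62 ± 0.23 in control (3.07-fold, adjusted p = 3.7e-05) and 1.74 ± 0.24 in cKO cells (3.34-fold, adjusted p = 2.5e-05).

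Dusp10 (ENSMUSG00000039384) is directed at JNK and p38, and Dusp14 (ENSMUSG00000018648) is a small atypical phosphatase that binds CD28. Dusp10 stood at 25.96, 39.1 and 35.1 CPM in resting control and at 32.7, 31.3, 30.6, 32.2 and 32.8 CPM in stimulated control libraries. In cKO cells Dusp10 was at 33.0, 36.7 and 42.3 CPM at rest and 36.9, 32.0, 30.5 and 30.7 CPM after stimulation. Stimulated values were tightly packed within the range of the resting ones in control cells, and in the cKO both groups overlapped. Its difference was -0.07 ± 0.12 in control (95% interval -0.31 to 0.18) and -0.20 ± 0.12 in cKO cells (-0.46 to 0.06), with adjusted p = 0.66 and 0.18.

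Dusp14 was the least abundant phosphatase, with 73 to 186 estimated counts per library. Resting control libraries held 4.34, 3.82 and 7.01 CPM and stimulated ones 9.89, 8.15, 6.65, 7.42 and 8.61 CPM. The cKO libraries held 3.72, 5.07 and 3.81 CPM at rest and 7.44, 7.30, 7.73 and 9.25 CPM when stimulated. The control groups overlapped by 1 library on either side, and the cKO groups were apart. Dusp14 rose by 0.68 ± 0.20 in control (1.601-fold, adjusted p = 0.0075) and by 0.92 ± 0.21 in cKO cells (1.89-fold, adjusted p = 0.0011).

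Spry1 and Spry2, close relatives that both restrain RAS signalling, moved in opposite directions. Spry1 (ENSMUSG00000037211) was at 6.64, 6.67 and 5.54 CPM in resting control libraries and at 56.3, 72.8, 65.4, 67.8 and 71.1 CPM in stimulated ones. The cKO libraries held 10.9, 6.65 and 7.44 CPM of Spry1 at rest and 79.7, 83.3, 74.2 and 53.7 CPM after stimulation. Its lowest stimulated library was several times its highest resting one. Spry1 rose by 3.41 ± 0.18 in control (10.6-fold, adjusted p = 2.0e-10) and by 3.12 ± 0.18 in cKO cells (8.72-fold, adjusted p = 7.0e-10).

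Spry2 (ENSMUSG00000022114) was at 9.53, 7.29 and 13.5 CPM in resting control libraries and at 5.21, 4.76, 4.0, 6.47 and 4.45 CPM in stimulated ones. In cKO cells Spry2 was at 4.89, 8.60 and 8.30 CPM at rest and 4.28, 4.80, 4.78 and 3.87 CPM after stimulation. All stimulated libraries lay under all resting ones of the same genotype, by a narrow gap in the cKO, where resting replicate 1 was barely above the stimulated libraries. Spry2 fell by 1.02 ± 0.21 on the log2 scale in control (2.03-fold, adjusted p = 5.6e-04) and by 0.71 ± 0.23 in cKO cells (1.64-fold, adjusted p = 0.013). The fall in cKO cells was no longer called without resting cKO replicate 2 (adjusted p = 0.074) or 3 (0.067). Its counts were low, at 72 to 312 per library.

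On the length-scaled TPM, which allows levels of different genes to be set side by side, the balance of the pair turned over. The ratio of Spry1 to Spry2 in TPM was 0.558 ± 0.209 (0.338 to 0.754) in resting control and 11.4 ± 2.39 (8.73 to 13.6) in stimulated control libraries. In cKO libraries it was 1.08 ± 0.667 (0.636 to 1.84) at rest and 13.6 ± 1.71 (11.5 to 15.4) after stimulation. Thus Spry2 was the higher of the pair in each resting control library, and Spry1 in each stimulated one.

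Spred1 (ENSMUSG00000027351), which brings the RAS inactivator neurofibromin to the membrane, held 54.9, 38.5 and 65.0 CPM in resting control libraries and 69.3, 74.4, 58.8, 72.7 and 76.7 CPM in stimulated ones. The cKO libraries went from 43.2, 49.1 and 35.8 CPM to 65.5, 75.0, 69.9 and 75.6 CPM. In control cells 1 resting library lay above the lowest stimulated one, and in the cKO there was no overlap. Spred1 rose by 0.41 ± 0.14 in control (1.33-fold, adjusted p = 0.020) and by 0.74 ± 0.15 in cKO cells (1.67-fold, adjusted p = 3.9e-04). Without resting control replicate 2, the lowest library, the control value was 0.23.

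**Figure D2:**
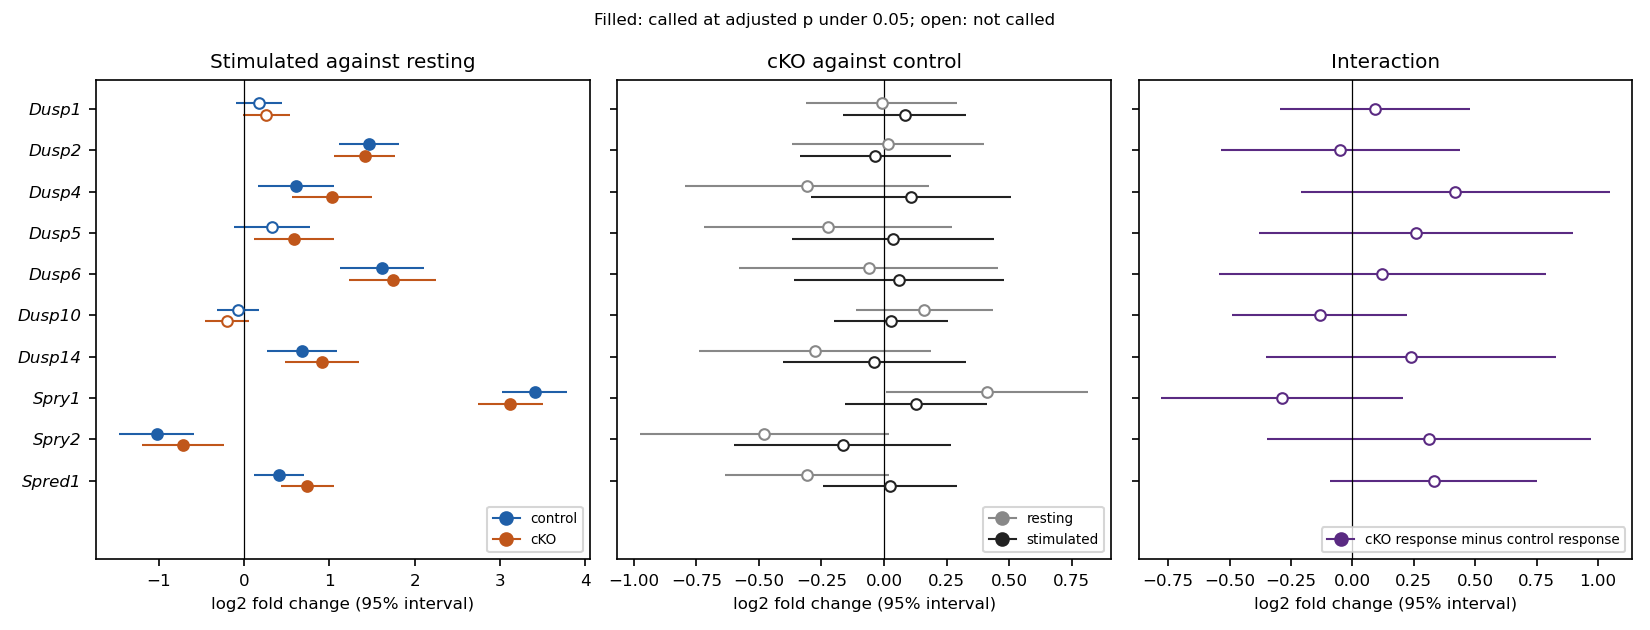
Log2 fold changes of the 10 genes with 95% intervals for stimulated against resting libraries in each genotype, for cKO against control in each condition, and for the response of cKO minus that of control cells. Filled points were called and open points were not; calls appear only in the first panel, 7 in control and 8 in cKO cells.

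Ordered by mean CPM, the lower 2 groups were the resting ones and the upper 2 the stimulated ones for 8 of the 10 genes, the exceptions being Dusp10 and Spry2. Dusp2, Dusp6, Dusp14 and Spry1 had a gap between the middle 2 groups of the order, where every library of one lay below every library of the other. All other neighbours in the order overlapped, including control and cKO of one condition. For Dusp14 the middle 2 groups were resting control and stimulated cKO cells, and its resting and stimulated control libraries overlapped. The share of all genes with such an order or gap was not computed. Within a genotype, resting and stimulated groups did not overlap for 47.9% of all genes in control and 54.1% in cKO cells. The order of the 4 groups was the same on the deposited TPM for Dusp2, Dusp4, Dusp14, Spry1 and Spry2.

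In TPM, Dusp4 led at rest with 61.8 ± 20.9 in control and 56.0 ± 16.3 in cKO cells, which was 33.7% and 30.5% of the sum over the 10 genes. After stimulation Dusp6 had the highest mean with 120.2 ± 17.5 TPM in control and 123 ± 35.5 TPM in cKO cells (31.3% and 31.9% of the sum), while Dusp4 was at 106 ± 19.5 and 108 ± 17.4 TPM. The values of Dusp6 and Dusp4 after stimulation overlapped within their SD, so their order is not resolved. Dusp5 followed at 50.5 ± 8.60 and 48.7 ± 6.39 TPM. The resting levels of Dusp5 were 36.0 ± 10.4 TPM in control and 34.6 ± 11.2 TPM in cKO cells, close to those of Dusp6 at 35.4 ± 11.9 and 38.5 ± 8.68 TPM. Spry1, with the highest fold change, went from 2.51 ± 0.345 to 29.6 ± 4.56 TPM in control and from 3.70 ± 1.01 to 30.6 ± 7.43 TPM in cKO cells. Its share of the sum in control cells went from 1.37% to 7.69%. Spry2 was the lowest of the 10 after stimulation, at 2.67 ± 0.706 TPM in control and 2.25 ± 0.430 TPM in cKO cells. The 10 genes together held 183 ± 47.6 TPM in resting and 384 ± 41.3 TPM in stimulated control libraries, and 184 ± 37.8 and 385 ± 75.5 TPM in the cKO.

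**Figure D3:**
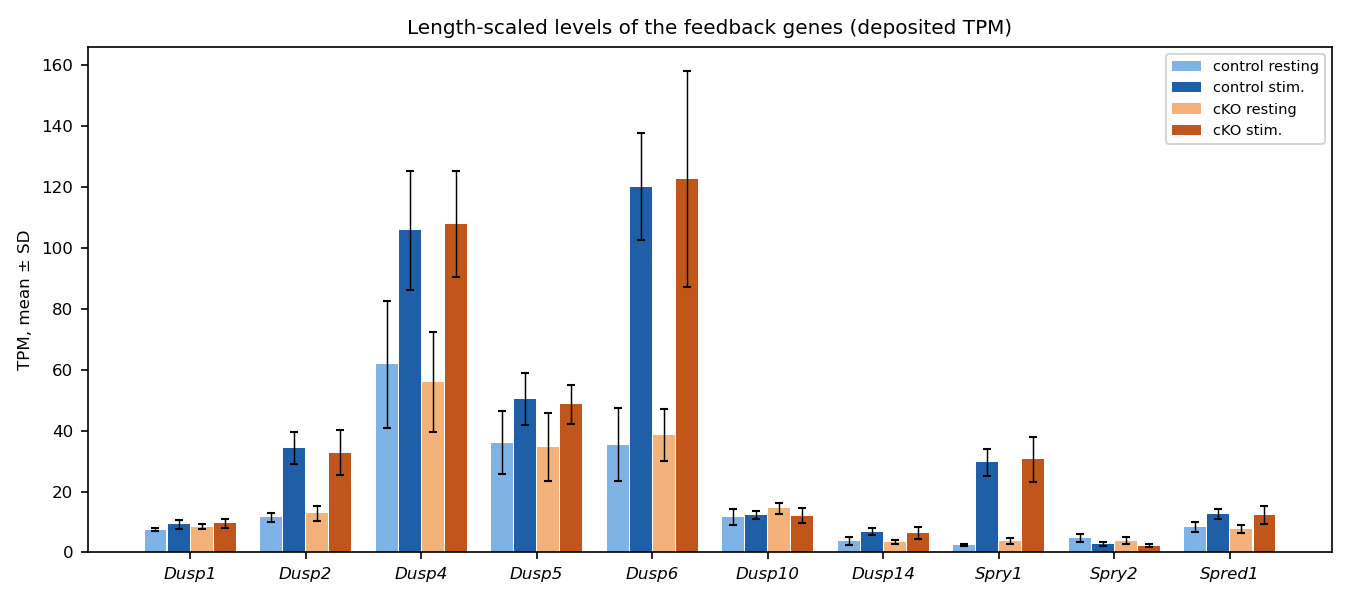
Deposited TPM of each feedback gene as the mean (bar, axis from 0) and SD (error bar) of each of the 4 groups. Dusp4 is highest at rest, Dusp6 and Dusp4 are highest after stimulation, and the error bars of control and cKO overlap within each condition.

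Between control and Asb2-deleted cells no gene of the 10 passed the test in either condition. In resting cells 0 of 10 were called by edgeR's quasi-likelihood test, as were 0% of all 15619 genes, and 0 of the 10 by DESeq2. At an unadjusted p under 0.05 there was 1 of the 10, Spry1, against 2.57% of all genes. The log2 difference of Spry1, cKO minus control, was 0.41 ± 0.19 (95% interval 0.01 to 0.82), with an adjusted p = 1 in edgeR over all genes. Resting cKO replicates 1 and 3 lay above the 3 control libraries and replicate 2 lay among them. Spry2 was at -0.48 ± 0.24 (-0.98 to 0.02) and Spred1 at -0.31 ± 0.16 (-0.64 to 0.02). For the 10 genes the log2 differences ran in both directions, 7 negative and 3 positive, with a median of -0.14. In none of the 10 were the resting groups apart, which they were for 7.86% of all genes.

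In stimulated cells 0 of 10 were called, against 0.0064% of all genes, that being Asb2 alone, and 0 of the 10 by DESeq2. At an unadjusted p under 0.05 there were 0 of the 10, against 1.81% of all genes. The log2 differences lay between -0.17 ± 0.21 for Spry2 and 0.13 ± 0.13 for Spry1, with a median of 0.03. Dusp6 was at 0.06 ± 0.20, Dusp4 at 0.11 ± 0.19 and Dusp2 at -0.03 ± 0.14. No gene had stimulated groups that were apart, against 0.659% of all genes.

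The size of the genotype difference that these libraries leave possible can be read from the 95% intervals, which are not adjusted for the number of genes. They rest on 1 estimate of spread shared by all 4 groups. The median coefficient of variation of the 10 genes was 28.3% and 21.5% in resting control and cKO libraries. After stimulation it was 11.98% and 11.6%. The bounds for resting cells may therefore be too narrow. In stimulated cells the intervals of the 10 genes together spanned 0.660-fold (Spry2) to 1.42-fold (Dusp4). In resting cells they spanned 0.509-fold (Spry2) to 1.76-fold (Spry1). A p that missed the threshold does not show that the genotypes are alike within these bounds.

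Whether the response to stimulation differed between genotypes was tested directly as the difference of the 2 responses. It passed for 0 of the 10 genes and for 0% of all genes in edgeR's quasi-likelihood test, and for 0 of the 10 in DESeq2. None of the 10 had an unadjusted p under 0.05, against 3.87% of all genes. Dusp4 had the highest value, 0.42 ± 0.29, followed by Spred1 at 0.33 ± 0.20 and Spry2 at 0.31 ± 0.31. The lowest was Spry1 at -0.29 ± 0.23. The intervals together spanned a ratio of responses from 0.583 (Spry1) to 2.07 (Dusp4). Dusp5, which was called in cKO and not in control cells, had a difference of 0.26 ± 0.30 between its responses, so the genotypes are not shown to differ in it. The comparisons within and between genotypes share the same resting and stimulated libraries and are not independent.

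Between resting libraries the feedback genes had a higher median spread than genes in general. Their median coefficient of variation was 28.3% over the resting control and 21.5% over the resting cKO libraries, against 13.2% and 12.03% for all genes tested. After stimulation it was 11.98% in control and 11.6% in cKO cells, against 13.9% and 15.3%. In resting control replicate 3, 8 of the 10 genes had their highest value of the 3 libraries (38.6% of all genes), and Spry1 had its lowest. In resting cKO replicate 2, 7 of the 10 had their highest value (32.2% of all genes). Replicate 1 of resting cKO was lowest for 7 and highest for Spry1.

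The transcriptional targets of ERK that were measured beside them moved in the same libraries. Their summed level was 573, 490 and 689 CPM in the resting control libraries and 491, 575 and 463 CPM in the resting cKO libraries. Of 14 such targets, 10 were highest in resting control replicate 3 and 10 in resting cKO replicate 2, the libraries where most feedback genes were highest. After stimulation the sums were 1735 to 2173 CPM in control and 1781 to 2057 CPM in cKO cells. The CD8 and NK marker sum was 43.5, 59.6 and 145 CPM in the resting control and 38.6, 54.7 and 81.8 CPM in the resting cKO libraries, with its highest values in resting control replicate 3 and resting cKO replicate 3. Of the 6 macrophage genes Lyz2 and C1qa were at 0, and Csf1r and Cd14 reached at most 0.0517 and 0.362 CPM. Adgre1 had the highest mean at rest. The sum of the 6 was 11.99, 13.8 and 20.6 CPM in the resting control and 14.7, 18.8 and 11.4 CPM in the resting cKO libraries. This sum was highest in the same 2 libraries, resting control replicate 3 and resting cKO replicate 2, as most of the feedback genes. The part of either marker list in the spread was not tested.

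**Figure D4:**
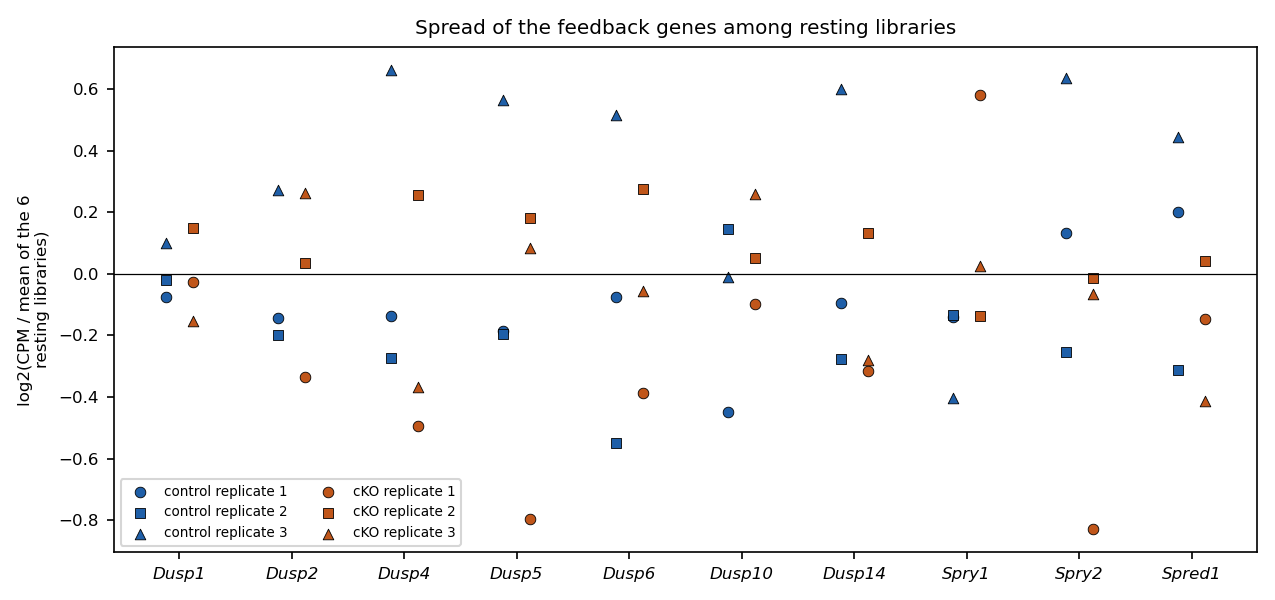
Level of each feedback gene in each resting library as log2 of its CPM over the mean of the 6 resting libraries, with colour for genotype and shape for replicate number. Control replicate 3 is above the other control libraries for 8 of the 10 genes and below them for Spry1.

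Within groups the genes tended to deviate together. Over the 15 libraries, after removal of each group's mean, 36 of the 45 gene pairs had a positive Pearson correlation of log2 CPM. The median r was 0.39, which is a description of libraries that share culture and depth. Pairs of other genes were not examined, so this is not shown to be particular to the feedback genes. The highest were Dusp5 with Spry2 (0.83), Dusp4 with Dusp5 (0.78) and Dusp14 with Spred1 (0.75). Spry1 was in 8 of the 9 negative pairs, the lowest being with Dusp14 (-0.63) and Dusp6 (-0.47). So the gene with the highest rise on stimulation did not share the within-group deviations of the other feedback genes.

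For each feedback gene the gene with the most similar pattern over the 15 libraries was looked up by the same correlation with group means kept in. For Spry1 it was Shtn1 (r = 0.992), for Dusp6 Srp68 (0.988), for Dusp14 Wars (0.985), for Dusp2 Cd82 (0.983), for Dusp4 Sec61a1 (0.981) and for Spred1 Pfkfb3 (0.970). Dusp5 was closest to Crem (0.952) and Spry2 to Armc7 (0.939). Values were lower for Dusp1 with Inafm2 (0.831) and Dusp10 with Acot8 (0.810), the 2 genes without a called response. Resting and stimulated libraries form separate clusters, so these values mostly describe the step between the 2 conditions.

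For 6 lists of other pathway genes the counts are read against all genes tested, of which 25.4% rose and 25.2% fell in control cells and 26.7% rose and 27.1% fell in cKO cells. Among 12 other dual-specificity phosphatases 4 rose and 3 fell in control cells, and 5 rose and 1 fell in cKO cells, with medians of 0.17 and 0.57 on the log2 scale, against 0.00 and -0.01 over all genes. Dusp7, a cytoplasmic relative of Dusp6, fell from 74.0 ± 3.46 to 35.2 ± 3.26 CPM in control cells (-1.07 ± 0.09) and from 71.3 ± 3.11 to 37.9 ± 4.05 CPM in cKO cells (-0.91 ± 0.10). The 2 cytoplasmic relatives thus moved in opposite directions in both genotypes. Dusp19 rose from 5.49 ± 0.938 to 13.7 ± 0.792 CPM in control cells and from 5.45 ± 0.702 to 14.4 ± 0.932 CPM in cKO cells. Dusp8 also rose, from very few counts. It had 3 counts over the resting and 53 over the stimulated control libraries, a ratio of 11.5 after scaling (exact 95% binomial interval 3.73 to 57.6, counting error only). In cKO cells Dusp8 had 6 and 40 counts. The Dusp8 call was lost in 3 of 25 alternatives in control and in 5 of 24 in cKO cells. Over the alternatives its log2 fold change went down to 0.14 in control and 0.05 in cKO cells. The losses included limma on log2(TPM + 0.1) in both genotypes (adjusted p = 0.077 in control and 0.41 in cKO cells). In cKO cells the call was also lost without resting replicate 1 (adjusted p = 0.051) or 3 (0.058).

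Of 11 other Sprouty, Spred and RAS-braking genes tested, 3 rose and 3 fell in control cells and 2 rose and 4 fell in cKO cells (medians -0.08 and 0.08). Rasa3, a GTPase-activating protein that switches RAS and RAP1 off, fell from 129.9 ± 14.9 to 22.9 ± 2.93 CPM in control cells (-2.50 ± 0.11), and in the cKO its log2 change was -2.44 ± 0.12. Rasal3, another of this family, fell by 0.88 ± 0.09 in control and 0.99 ± 0.10 in cKO cells. Rasal1, at low levels, rose from 1.33 ± 0.376 to 3.67 ± 1.05 CPM in control and from 1.77 ± 0.203 to 3.04 ± 0.514 CPM in cKO cells. Its rise in cKO cells was no longer called without resting cKO replicate 1 (adjusted p = 0.054) or 3 (0.060).

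Both kinase cascades held genes that rose and genes that fell. In the RAS and ERK cascade 4 of 17 genes rose and 3 fell in control cells, and 4 rose and 2 fell in cKO cells. Rasgrp1, which activates RAS in response to diacylglycerol, fell from 505 ± 68.9 to 162 ± 11.95 CPM in control cells (-1.64 ± 0.09), with -1.70 ± 0.09 in the cKO. The ERK scaffold Ksr1 rose by 0.68 ± 0.10 and 0.62 ± 0.10, and Map2k1, which phosphorylates ERK, by 0.65 ± 0.11 and 0.79 ± 0.11. Among 14 genes of the JNK and p38 cascade 4 rose and 5 fell in control cells, and 5 rose and 5 fell in cKO cells. Gadd45b, a stress protein that binds the kinase MEKK4, rose by 2.69 ± 0.28 and 3.21 ± 0.30. Mapk14, which encodes p38 alpha, fell by 0.86 ± 0.09 in control and 0.79 ± 0.09 in cKO cells, and Map3k1 by 0.69 ± 0.09 and 0.55 ± 0.10.

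Of 13 kinases and factors downstream of the MAP kinases, 5 rose and 4 fell in control cells and 6 rose and 5 fell in cKO cells. Mapkapk2, the main effector kinase of p38, rose from 148 ± 20.7 to 502 ± 76.5 CPM in control cells (1.76 ± 0.19), with 1.97 ± 0.19 in the cKO. Rps6ka5, a nuclear kinase activated by ERK and p38, fell by 1.11 ± 0.15 and 1.17 ± 0.16, and Elk4, a ternary complex factor, by 0.66 ± 0.08 and 0.64 ± 0.09. Targets of ERK were mostly higher: of 14 tested, 11 rose and 1 fell in control cells, and 10 rose and 1 fell in cKO cells, with medians of 1.27 and 1.42. Egr2, an early growth response factor, rose from 16.1 ± 7.83 to 188 ± 10.9 CPM in control cells and from 9.38 ± 3.77 to 189 ± 21.6 CPM in cKO cells. Egr3 rose by 3.66 ± 0.16 and 4.21 ± 0.17, and Fos by 2.73 ± 0.22 and 3.15 ± 0.24. The 1 target that fell was Zfp36, which encodes an mRNA-destabilising protein and was singled out after its values were seen; it fell by 0.55 ± 0.10 and 0.69 ± 0.10. No gene of the 6 lists was called between genotypes or in the test of the difference between responses.

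**Figure D5:**
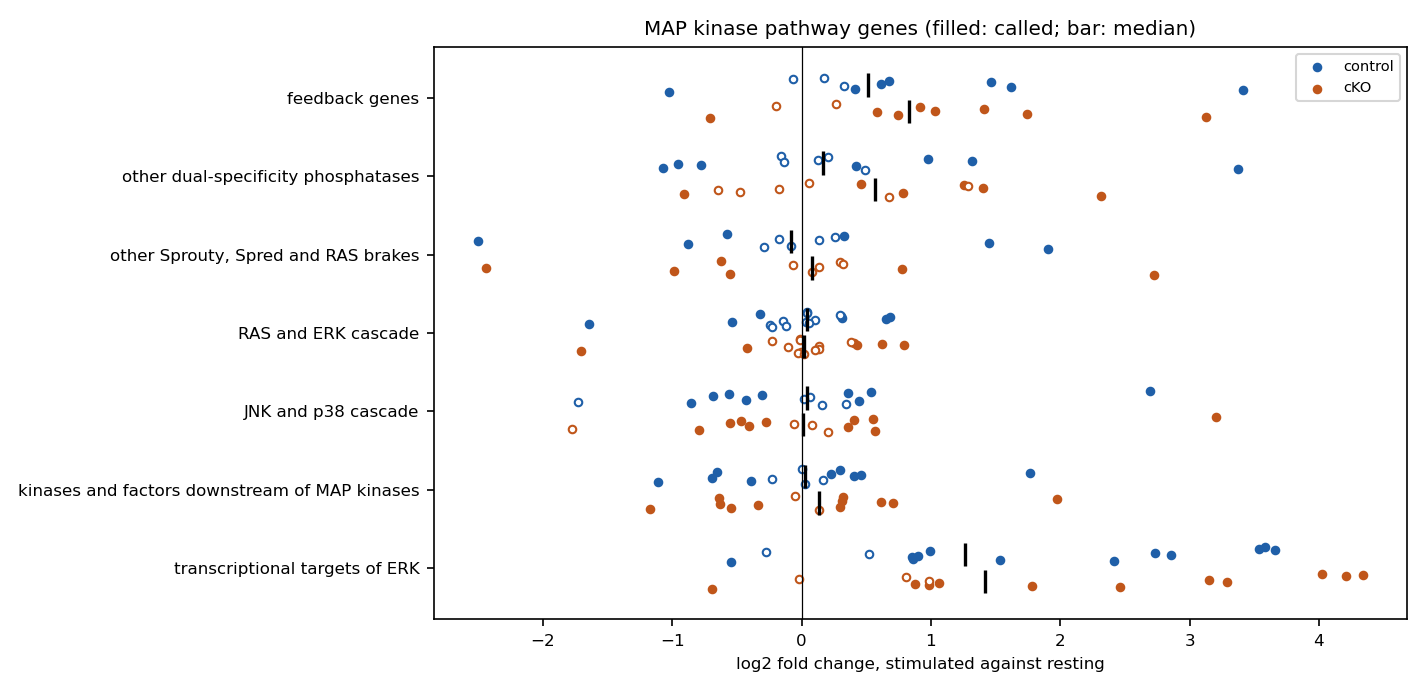
Log2 fold change of each tested gene, stimulated against resting, in control and cKO cells for the 10 feedback genes and 6 other lists of MAP kinase pathway genes. Filled points were called, open points were not, and black bars are medians; the medians of the ERK targets, 1.27 and 1.42, are the highest of the lists shown.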

How the data were processed

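RNA-seq of 15 libraries was analysed from tables of estimated counts and TPM per gene. Per the labels' protocols, libraries were made with a stranded total RNA kit after depletion of ribosomal RNA. The deposited estimated counts carry no scaling between libraries, and the TPM values were computed by the authors; the submitters' processing notes name Salmon 1.10.1, STAR 2.7.9a, cutadapt 3.4 and the GRCm39 build, while their roles and the annotation release are not given in the sources used here.

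Counts were rounded, filtered with filterByExpr (15619 of 56748 genes, holding at least 99.9% of each library's counts), scaled by TMM and fitted with edgeR 4.0.16 (R 4.3.3) as a robust quasi-likelihood model of 4 group means over all 15 libraries, so that groups share 1 estimate of spread. Tests were two-sided with Benjamini-Hochberg adjustment over all genes tested, at 0.05. All adjusted p-values are from this model unless another tool is named. Standard errors and 95% intervals were derived from the F statistics of that model. A check on simulated counts preceded the fits. The biological coefficient of variation was 15.4%. Alternatives were DESeq2 1.42.0, other scaling, filter and sample choices, limma 3.58.1 on log2(TPM + 0.1) and log2(TPM + 1), and leaving out libraries. A fit without the 2 libraries that stood apart, resting control replicate 3 and stimulated cKO replicate 3, was added after seeing the data.

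Members and lists were chosen with earlier results of these data known. From each pathway list the 3 genes with the smallest p in control cells were named, and for each member the gene with the highest correlation of log2 CPM (prior count 2), leaving out clone identifiers and predicted genes. Within groups each of the 22 pairs of libraries differed by more than sampling noise (chi-square per gene at least 12.2). Promoters are RefSeq windows on GRCm38.p6 and were matched by symbol.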

Additional observations from a re-analysis of the deposited data

How the results depend on the processing

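The calls of Spry1, Dusp2 and Dusp6 held in both genotypes under all 25 alternatives, with log2 fold changes of Spry1 from 3.11 to 3.50 in control and 2.74 to 3.37 in cKO cells. Over the alternatives the fold changes of the 10 genes lost a call in 10 of 250 checks and gained 2 in control cells, and lost 10 and gained 1 of 250 in cKO cells; no called value changed sign, and values that were not called changed sign in 76 checks over the 5 comparisons. Feedback genes called ranged from 4 to 8 in control cells and from 7 to 9 in cKO cells when 1 library was left out, and were 5 and 8 with the replicate block, 5 and 8 with the replicate block within genotype, and 0 under every alternative in the genotype comparisons and the difference of responses. Of 13 same-numbered pairs of libraries, 3 had a correlation of deviations over 0.1 (range -0.20 to 0.18). Whether the replicate numbers pair libraries cannot be decided from this, since the groups are small and differently numbered pairs were not compared. With the replicate block Dusp4 (adjusted p = 0.051) and Spred1 (0.11) lost their calls in control cells, as they did with the replicate block within genotype (0.065 and 0.11). Over all genes the replicate block called 7411 and 8329 genes for stimulation in control and cKO cells and 0, 1 and 0 for genotype at rest, genotype after stimulation and the difference of responses. All genes called for genotype at rest numbered 4 with DESeq2, 1 with no filter, 3 on log2(TPM + 1), 9 on log2(TPM + 0.1) with no filter, 1 without the 2 libraries that stood apart, and 0 to 1 with 1 library left out. For genotype after stimulation DESeq2 called 5. For the difference of responses the counts were 2 with DESeq2, 1 with the replicate block within genotype, 2 on log2(TPM + 1) and 4 on log2(TPM + 0.1) with no filter. On log2(TPM + 0.1) the split of all genes called in control cells was 3754 higher and 2108 lower, against 3961 and 3936 in the counts, and the median of all genes moved by 0.14.

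The list counts moved most on log2(TPM + 0.1) with no filter, where the JNK and p38 list had 3 calls in cKO cells in place of 10 and 4 in place of 9 in control cells. On that scale the calls of downstream kinases and factors were 5 in place of 11 in cKO and 5 in place of 9 in control cells, those of other phosphatases 3 in place of 6 and 3 in place of 7, and 3 in place of 6 for both the RAS brakes and the RAS and ERK cascade in cKO cells. With the filter, on log2(TPM + 0.1) and on log2(TPM + 1), the JNK and p38 list had 5 calls and the downstream list 7 in cKO cells, and on log2(TPM + 0.1) other phosphatases had 3 in control cells. With the replicate block the RAS and ERK cascade had 11 calls in place of 7 in control cells. The 19 list genes followed under the alternatives kept their calls in 931 of 949 checks. The 18 losses were of Dusp8, Rasal1, Zfp36, Elk4 and Mapk14, and none reversed. The cause of these shifts was not tested. Spry2 and Dusp14 had the fewest counts of the 10, and Dusp6 had the highest standard error for stimulation in both genotypes (0.23 in control and 0.24 in cKO cells).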

Other observations

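No stimulated library stood out from its group for any of the 10 genes: of 20 groups of 4 or 5 libraries checked for a single distant value, 0 held one. Groups of 3, the resting ones, are too small for that check.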
